A study of Homo sapiens with 8 samples.

Results

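Metallothioneins and zinc transporters were examined in LX-2 cells treated with an inhibitor of O-GlcNAc transferase (OGT), the enzyme that links the sugar O-GlcNAc to proteins inside the cell. The 10 genes described are the metallothioneins MT2A, MT1E, MT1F, MT1G, MT1M and MT1X, the transcription factor MTF1, the zinc exporter SLC30A1 (ZnT1) and the zinc importers SLC39A10 (ZIP10) and SLC39A14 (ZIP14). Their rows were found by gene symbol, and each of the 10 symbols matched a row among the 16796 genes measured. LX-2 is an immortalised human hepatic stellate cell line, and all 8 libraries came from this 1 line, grown in DMEM with 5% fetal bovine serum. Control cells received the vehicle DMSO, and OGTi cells received OSMI-1, a small-molecule OGT inhibitor, at 50 µM for 24 h. Each group comprised 4 biological replicates, and control and OGTi libraries of the same replicate number were compared as pairs.

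Metallothioneins are small cysteine-rich proteins that bind zinc and copper in the cytosol. When free zinc rises, MTF1 binds short metal response elements in the promoters of metallothionein genes and of SLC30A1 and switches them on. SLC30 proteins (ZnT) move zinc out of the cytosol, to the outside of the cell or into organelles, whereas SLC39 proteins (ZIP) move it into the cytosol. Metallothionein genes also respond to glucocorticoids, to other metals and to stress, and MT1 and MT2A transcripts are abundant in liver.

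The metal response element lies in the promoter, so the 250 bases before the gene start were read from RefSeq (GRCh38.p14). The genes read were MT2A, MT1X, SLC30A1, MTF1 and SLC39A10. MT1E, MT1F, MT1G and MT1M had no entry there, and the promoter of SLC39A14 was not examined here. The letters searched were TGCACNC and TGCGCNC, the core of the element, on both strands. The 3 windows that held them are printed below, 5′ to 3′ on the strand of the gene, with each match in capitals. The MT2A window is chr16:56608334-56608583 (plus strand), the MT1X window is chr16:56682220-56682469 (plus strand) and the SLC30A1 window is chr1:211579162-211579411 (minus strand).
MT2A: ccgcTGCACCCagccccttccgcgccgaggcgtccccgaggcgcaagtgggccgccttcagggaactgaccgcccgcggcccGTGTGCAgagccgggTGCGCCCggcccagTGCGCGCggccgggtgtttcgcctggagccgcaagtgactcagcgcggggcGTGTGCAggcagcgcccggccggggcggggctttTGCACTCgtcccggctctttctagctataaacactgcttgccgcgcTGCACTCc
MT1X: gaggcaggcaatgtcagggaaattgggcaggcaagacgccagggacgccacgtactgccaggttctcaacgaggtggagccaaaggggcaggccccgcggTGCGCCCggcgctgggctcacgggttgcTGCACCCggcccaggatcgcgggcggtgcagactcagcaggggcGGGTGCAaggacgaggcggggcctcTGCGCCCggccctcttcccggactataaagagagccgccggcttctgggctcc
SLC30A1: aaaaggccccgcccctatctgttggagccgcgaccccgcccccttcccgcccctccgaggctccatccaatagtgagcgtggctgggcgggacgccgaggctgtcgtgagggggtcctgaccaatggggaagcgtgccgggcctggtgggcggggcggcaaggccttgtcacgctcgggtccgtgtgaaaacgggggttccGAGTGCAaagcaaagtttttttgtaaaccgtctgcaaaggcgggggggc

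The MT2A window held 7 matches, the MT1X window 4 and the SLC30A1 window 1. Of all 35116 RefSeq promoter windows of this length, 24.8% held at least 1 match, 0.37% held at least 4 and 0.0313% held at least 7. The single match of SLC30A1 was therefore of a frequency found in many promoters. The letters were not in the MTF1 window or in either window of SLC39A10, which has a pair of RefSeq entries. Those windows are chr2:195656708-195656957 and chr2:195656976-195657225. They lie inside the GENCODE span of SLC39A10 given below, and the bases before that span were not read. A match describes the sequence and is not a measurement of binding.

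The libraries held 24166756 to 28201215 counts each. Values are normalized counts, that is, counts divided by a size factor of the library, and genes with a q of 0.05 or lower in the DESeq2 test across all genes were called, where q is the p-value after Benjamini-Hochberg adjustment. Stellate and mesenchymal markers were abundant, with a summed level of 176963 to 205568 in control and 131564 to 153259 in OGTi libraries, although DES and LRAT, 2 of the 9, stayed under 10 counts. VIM and COL1A1 made up most of this sum. COL1A1, COL1A2, COL3A1, PDGFRB and ACTA2 were each lower in every OGTi library than in any control library. VIM (81899 to 101437 in control and 79105 to 109557 in OGTi libraries) and RGS5 overlapped between the groups. Summed markers of other cell types were low, over those markers that had a row. ALB, TTR and CYP3A4 of hepatocytes, STAB2 and LYVE1 of endothelium, CD163 of macrophages and EPCAM of cholangiocytes had no row among the genes measured. Those of hepatocytes were at 47.1 to 104 in control and 184 to 297 in OGTi libraries, with CYP2E1 at 27.3 to 62.9 and 156 to 271 and APOA1 at 0 to 1. Endothelial markers were at 26.3 to 49.8 and 5.01 to 11, macrophage and blood markers at 57.2 to 95.5 and 43.1 to 98.4, and cholangiocyte markers at 68.6 to 141 and 35.2 to 77.1. In bulk RNA of this 1 line, a change in the number of cells holding a transcript and in its level per cell cannot be told apart.

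Of the 9 genes with a q, 4 were called, and 5 were not. MT1X, MT1E and MT2A were higher in OGTi cells and SLC39A10 was lower, whereas MT1F, MT1M, MTF1, SLC30A1 and SLC39A14 were not called. Over all 14028 genes with a q, 46.6% were called, 22.7% as higher and 24.0% as lower, so the share of called genes was near that of the whole transcriptome. Among the 3181 genes called higher, MT1X ranked 100 by fold change, MT1E 184 and MT2A 201, and SLC39A10 ranked 537 among the 3360 genes called lower. The median log2 fold change of OGTi over control was 0.32 over the 9 genes and 0.00 over all genes tested. The groups did not overlap for 4 of the 10 genes, the same 4 that were called, against 40.0% of all genes tested. OGTi was the higher group for 3 of these, against 19.8% of all genes tested, and the lower group for 1, against 20.2%.

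**Figure D1:**
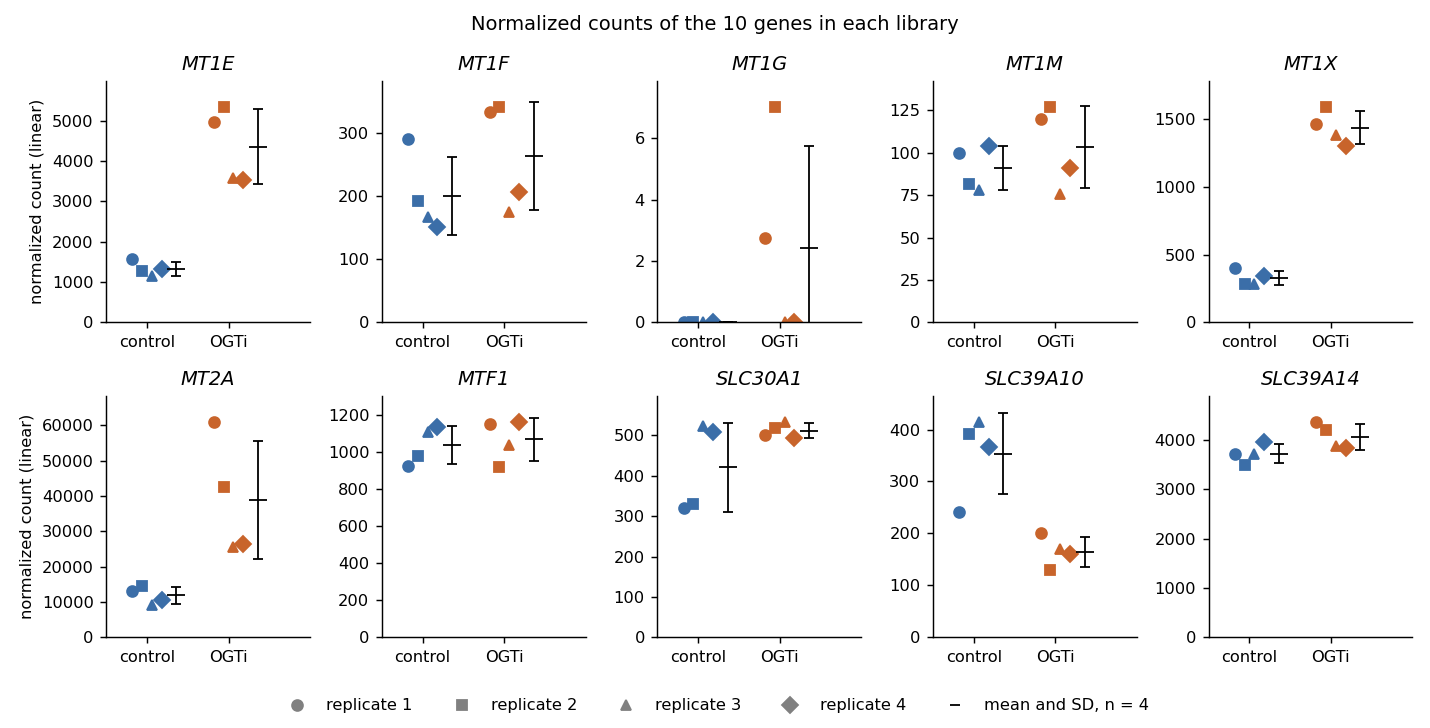
Normalized counts (linear axes from 0, separate scale for each gene) of the 10 genes in the control and OGTi libraries. Points are single libraries, shaped by replicate number, and bars give mean and SD (n = 4). MT1E, MT1X and MT2A lie higher in all 4 OGTi libraries than in any control library, SLC39A10 lies lower, and the groups of the other genes overlap.

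MT2A, the most abundant metallothionein transcript, had 13222, 14577, 9096 and 10519 normalized counts in control replicates 1 to 4 and 60981, 42473, 25471 and 26461 in OGTi replicates 1 to 4. Every OGTi library was above every control library, and OGTi replicates 1 and 2 were higher than replicates 3 and 4. The mean rose from 11853 ± 2495 to 38846 ± 16687 (SD, n = 4). The log2 fold change was 1.64 ± 0.19 (SE, DESeq2 q = 1.92e-16), a 3.12-fold rise (95% interval 2.4 to 4.04). The gain of 26993 normalized counts in MT2A was the fifth largest of all genes tested.

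Single pairs gave MT2A log2 differences of 2.21, 1.54, 1.49 and 1.33, and without replicate 1 the fitted value was 1.45. MT2A lies at chr16:56608584-56609497 on the plus strand of hg38, with 3 exons and a transcript of 401 nt. It is the first gene of the metallothionein cluster used here, and its promoter window is the one with 7 matches printed above.

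MT1E encodes a further zinc-binding isoform. It had 1558, 1273, 1147 and 1332 normalized counts in the control replicates and 4970, 5339, 3583 and 3525 in the OGTi replicates. As for MT2A, the groups were far apart and OGTi replicates 1 and 2 were the highest. The mean of MT1E rose from 1327 ± 172 to 4354 ± 937 (SD, n = 4), with a log2 fold change of 1.70 ± 0.10 (SE, DESeq2 q = 7.45e-64), or 3.24-fold (95% interval 2.84 to 3.71). Its pairs differed by 1.67, 2.07, 1.64 and 1.40 on the log2 scale. MT1E lies at chr16:56625475-56627112 on the plus strand and has 2 exons and a transcript of 746 nt in the annotation.

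MT1X, another MT1 isoform, showed the largest change of the 9 genes. Its normalized counts were 398, 287, 283 and 339 in the control replicates and 1465, 1591, 1386 and 1305 in the OGTi replicates. Both groups were tight, and the lowest OGTi library held over 3 times the counts of the highest control library. The mean rose from 327 ± 54.1 to 1437 ± 122 (SD, n = 4), a log2 fold change of 2.14 ± 0.12 (SE, DESeq2 q = 6.96e-70), or 4.42-fold (95% interval 3.76 to 5.19). MT1X lies at chr16:56682470-56684196 on the plus strand, with 3 exons and a transcript of 404 nt.

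MT1F, MT1M and MT1G lie between these genes in the cluster and did not follow them past the threshold. MT1F had 290, 192, 167 and 151 normalized counts in the control and 333, 341, 174 and 206 in the OGTi replicates, so the groups overlapped. Its log2 fold change was 0.39 ± 0.18 (SE, 95% interval 0.04 to 0.73, DESeq2 q = 0.0583), and OGTi was the higher library in 4 of 4 pairs. The call of MT1F turned with the method: edgeR's quasi-likelihood test with the same pairs gave q = 0.0244, and the fit without pairs gave q = 0.192.

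MT1M had 100, 81.7, 78.1 and 104 normalized counts in the control and 120, 127, 75.9 and 91.2 in the OGTi replicates. These ranges overlapped, and OGTi was higher in 2 of 4 pairs. The log2 fold change was 0.17 ± 0.25 (SE, DESeq2 q = 0.609), and its 95% interval of -0.31 to 0.65 lay below the intervals of MT1E, MT1X and MT2A, although the difference between these genes was not tested. MT1G was at 0 in the 4 control libraries and at 2.74, 7.03, 0 and 0 in the OGTi replicates. With 10 counts in all, a mean of 2.44 per OGTi library and a floor of 3 counts per library, no fold is given, and DESeq2 gave MT1G no q.

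**Figure D2:**
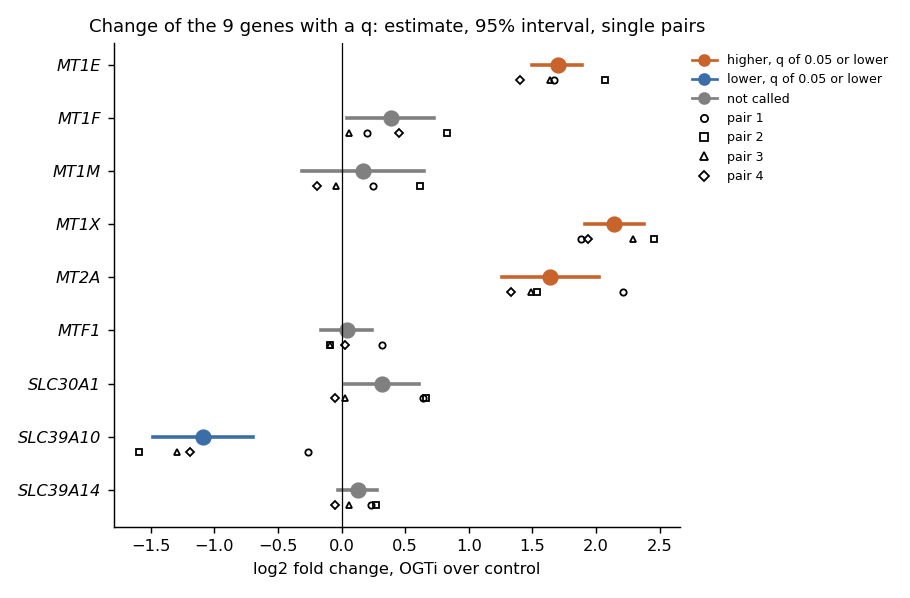
Log2 fold change of OGTi over control for the 9 genes with a q (horizontal axis). Filled points and bars are the DESeq2 estimate and its 95% interval, coloured by call, and open symbols are the 4 single pairs. MT1X stands furthest to the right at 2.14 and SLC39A10 furthest to the left at -1.09, and pair 1 of SLC39A10 lies apart from its other pairs at -0.26.

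The 6 metallothionein genes span 75.6 kb of chromosome 16, in the order MT2A, MT1E, MT1M, MT1F, MT1G and MT1X, and MT1G alone lies on the minus strand. The called genes were at both ends of this stretch. MT2A and MT1E, at one end, had log2 fold changes of 1.64 and 1.70, the inner genes MT1M and MT1F had 0.17 and 0.39, and MT1X, at the other end, had 2.14. MT1A, which lies within the same stretch, was at 0 to 11.5 normalized counts in every library and was not called (log2 fold change -0.58, DESeq2 q = 0.739), and MT3, outside it, had a single count in all. The other metallothionein genes and pseudogenes listed had no row among the genes measured, so they were not analysed here.

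**Figure D3:**
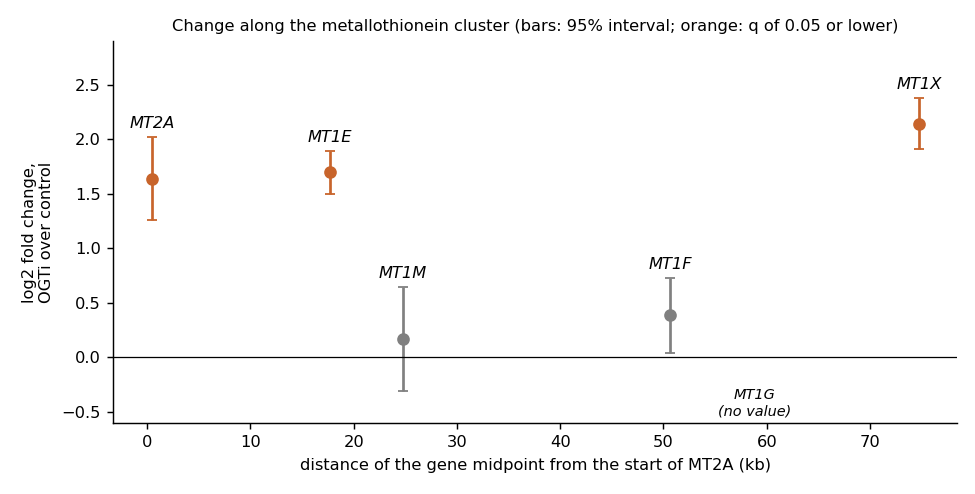
Log2 fold change of OGTi over control (vertical axis, with 95% interval) of the metallothionein genes by the distance of each gene's midpoint from the start of MT2A in kb (horizontal axis). Orange marks a q of 0.05 or lower and grey genes not called, and MT1G has no value. The genes at both ends of the cluster lie at 1.64 to 2.14, and MT1M and MT1F between them lie at 0.17 and 0.39.

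Metallothionein genes resemble each other, so reads can be split between them. Of the 50-base windows of each transcript, the share also found in a transcript of another gene was 6.12% for MT1F, 10.3% for MT1E, 11.1% for MT2A, 14.6% for MT1M, 19.9% for MT1G and 51.0% for MT1X. An unnamed gene overlaps MT1X on the same strand, and 16.6% of the MT1X windows were shared with genes that had a row here. All 48 values of the 6 genes were whole numbers as deposited.

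The sum over the 6 genes does not depend on how reads were split among them. It was 15569, 16411, 10770 and 12446 normalized counts in the control replicates and 67871, 49876, 30690 and 31589 in the OGTi replicates. Metallothionein transcripts thus made up 0.0388% to 0.0619% of a control library's counts and 0.12% to 0.269% of those of an OGTi library. The mean sum rose 3.26-fold, from 13799 ± 2643 in control to 45007 ± 17621 in OGTi libraries (SD, n = 4), and single pairs differed by 2.54-fold to 4.36-fold. OGTi replicate 1 held the largest sum, and without that replicate number the log2 difference of the means was 1.5 in place of 1.71.

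Replicates 1 and 2 stood on average above replicates 3 and 4 in each of these metallothioneins except MT1M in control cells, where they were level. The labels give no ground for this split, which serves as a description only. The log2 difference between these replicates in MT2A was 0.51 in control and 0.97 in OGTi cells, in MT1E 0.19 and 0.54, in MT1F 0.57 and 0.83, in MT1M 0.01 and 0.56, and in MT1X 0.13 and 0.18. The same difference over 126 other genes with a transcript under 600 nt showed a median of 0.18 in each group, against 0.00 over 13063 other genes, and its part in the spread of the metallothioneins was not tested. Between treatments, the median log2 fold change of those short transcripts was -0.02, and 15.1% were called higher.

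The mixture of metallothionein transcripts was compared as the share of each gene in the summed counts of a library. MT2A made up 85.7% ± 2.11 (SD, n = 4) of control and 85.4% ± 3.07 of OGTi metallothionein counts (exact two-sided permutation p = 0.83), and MT1E 9.78% ± 1.39 and 10.2% ± 1.97 (exact p = 0.571). MT1X made up 2.42% ± 0.447 and 3.5% ± 1.05 (exact p = 0.143), and the share of MT1G, at most 0.0141%, gave an exact p of 0.429. The share of MT1F was 1.17% to 1.86% in control and 0.49% to 0.683% in OGTi libraries. That of MT1M was 0.498% to 0.836% in control and 0.176% to 0.289% in OGTi libraries. Neither pair of ranges overlapped, and both exact p-values were 0.0286, the lowest value possible for groups of 4 libraries each. After Benjamini-Hochberg adjustment over the 6 shares both were at 0.0857, above 0.05. This test did not use the pairs. Both shares were lower in 4 of 4 pairs. For each, an exact sign-flip test, added after the data were seen, gave p = 0.125, the lowest value that 4 pairs allow. Mean counts did not fall, at 200 in control and 263 in OGTi cells for MT1F and 91.1 and 103 for MT1M. Their shares were lower as parts of a sum that rose 3.26-fold, so this comparison is not separate from their fold changes.

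**Figure D4:**
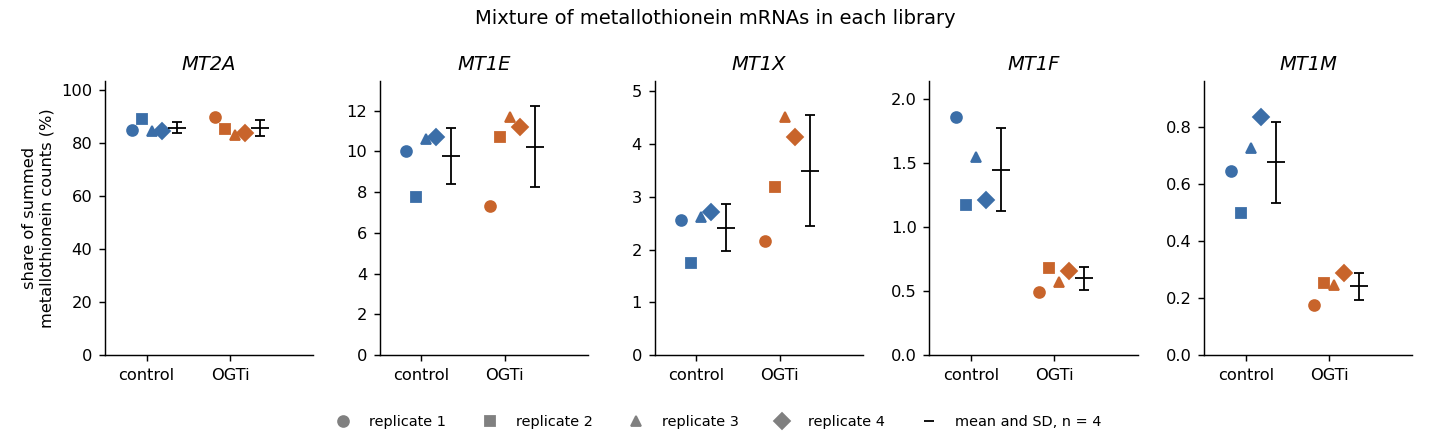
Share of each metallothionein in the summed metallothionein counts of a library (percent, linear axes from 0, separate scale for each gene). Points are libraries shaped by replicate number, and bars give mean and SD (n = 4). The shares of MT2A and MT1E overlap between control and OGTi, and those of MT1F and MT1M lie lower in all 4 OGTi libraries.

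Levels of different genes were compared as normalized counts per kb of transcript. The full annotated length was used, with no allowance for fragment size, so short and long transcripts compare only roughly. In control cells MT2A had 29560 ± 6222 per kb, MT1E 1779 ± 230, MT1X 809 ± 134, SLC39A14 799 ± 41.8, MT1F 470 ± 147, MT1M 229 ± 32.7, MTF1 131 ± 12.9, SLC30A1 71.4 ± 18.8 and SLC39A10 67.7 ± 14.9 (SD, n = 4), with MT1G at 0. The ranges of the neighbours MT1X and SLC39A14, and of SLC30A1 and SLC39A10, overlapped in control cells. The order was the same in OGTi cells. There MT1X had 3557 ± 301 per kb and SLC39A14 873 ± 55.8, SLC30A1 had 86.9 ± 3.08 and SLC39A10 31.6 ± 5.56, and the ranges of these neighbours no longer overlapped.

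MTF1, the zinc sensor that activates metallothionein genes, showed no called change of its own transcript. It had 924, 979, 1108 and 1138 normalized counts in the control and 1152, 919, 1041 and 1165 in the OGTi replicates. The groups overlapped almost entirely, and the log2 fold change was 0.04 ± 0.10 (SE, 95% interval -0.16 to 0.24, DESeq2 q = 0.761). Its transcript level is no measure of the activity of the protein, which is set by zinc binding. MTF1 lies at chr1:37809574-37859592 on the minus strand.

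SLC30A1 exports zinc across the plasma membrane and is, with the metallothioneins, a known target of MTF1. It had 321, 329, 524 and 509 normalized counts in the control and 502, 519, 534 and 493 in the OGTi replicates. The OGTi libraries were close together, whereas control replicates 1 and 2 were well below control replicates 3 and 4, which overlapped with OGTi. The log2 fold change was 0.32 ± 0.15 (SE, 95% interval 0.03 to 0.61, DESeq2 q = 0.0661), with pair differences of 0.64, 0.66, 0.03 and -0.05. The call depended on the method, with q = 0.0342 in edgeR with pairs and q = 0.155 in DESeq2 without them. SLC30A1 lies at chr1:211571568-211579161 on the minus strand.

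SLC39A10 imports zinc across the plasma membrane and was the 1 gene of the 10 that fell. Its normalized counts were 241, 392, 415 and 367 in the control and 200, 130, 169 and 160 in the OGTi replicates. All OGTi libraries lay below all control libraries, with control replicate 1 closest to them. The mean fell from 354 ± 77.8 to 165 ± 29 (SD, n = 4), with a log2 fold change of -1.09 ± 0.20 (SE, DESeq2 q = 3e-07), a 2.13-fold fall. Pair differences were -0.26, -1.59, -1.29 and -1.19, and without replicate 1 the fitted value was -1.36. SLC39A10 lies at chr2:195575977-195737702 on the plus strand.

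SLC39A14 imports zinc, iron and manganese and is known to be induced by inflammatory signals in liver. It had 3719, 3490, 3726 and 3967 normalized counts in the control and 4373, 4199, 3871 and 3835 in the OGTi replicates. The ranges overlapped, OGTi was higher in 3 of 4 pairs, and the log2 fold change was 0.13 ± 0.08 (SE, 95% interval -0.03 to 0.28, DESeq2 q = 0.181).

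The remaining zinc transporter genes were measured beside these 3. Of 10 other SLC30-family genes listed (with TMEM163), 7 had a q, of which 4 were called higher and 0 lower, with a median log2 fold change of 0.23. SLC30A3, a transporter known for loading zinc into synaptic vesicles, rose from 44.5 ± 5.02 to 94.5 ± 25.3 normalized counts (log2 fold change 1.07 ± 0.28, here and below with its SE, DESeq2 q = 0.000599). SLC30A4, of endosomal vesicles, rose by 0.47 ± 0.16 (q = 0.00867), and SLC30A5 and SLC30A6, which form a complex in the early secretory pathway, rose by 0.22 ± 0.09 (q = 0.0309) and 0.26 ± 0.09 (q = 0.0168). The count of 4 was not stable. Leaving out 1 replicate number left 1 to 3 of these calls, and all 8 libraries without the replicate block left 3. The reason was not tested.

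Of 12 other SLC39 genes listed, 8 had a q, of which 5 were called higher and 1 lower, with a median log2 fold change of 0.33. SLC39A11 rose from 309 ± 32.2 to 548 ± 25.7 normalized counts (log2 fold change 0.83 ± 0.13, DESeq2 q = 2.44e-09). SLC39A8, which imports zinc and manganese, rose from 406 ± 103 to 587 ± 62.1 (0.56 ± 0.13, q = 7.57e-05). SLC39A6, the gene closest in sequence to SLC39A10, rose by 0.35 ± 0.09 on the log2 scale (q = 0.000626), the opposite direction to SLC39A10. SLC39A9 and SLC39A13, importers of the secretory pathway, rose by 0.35 ± 0.08 (q = 5.68e-05) and 0.31 ± 0.09 (q = 0.00194). SLC39A1, a plasma membrane importer, decreased from 2359 ± 139 to 1764 ± 116 (log2 fold change -0.42 ± 0.09, q = 7.74e-06). SLC39A12 had no row among the genes measured, so it was not analysed here.

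Over all 18 zinc transporter genes with a q, including SLC30A1, SLC39A10 and SLC39A14, 9 were called higher, 2 lower and 7 not called, with a median log2 fold change of 0.24. The corresponding shares over all genes tested were 22.7% higher and 24.0% lower.

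Metallothioneins also bind copper, and 12 genes of copper handling were measured, all with a q. Of these, 7 were called higher and 0 lower, with a median log2 fold change of 0.29, beside 22.7% and 24.0% over all genes tested. The count was 4 without replicate 2 and 5 without pairs. The copper importer SLC31A1 rose from 1336 ± 81.8 to 1963 ± 90.1 normalized counts (log2 fold change 0.56 ± 0.08, DESeq2 q = 5.82e-11), and its relative SLC31A2 from 292 ± 34.4 to 580 ± 44.2 (1.0 ± 0.13, q = 6.39e-14). CCS, the copper chaperone of superoxide dismutase, rose from 480 ± 52.6 to 896 ± 119 (0.90 ± 0.11, q = 6.16e-16), and the copper pump ATP7A from 316 ± 24.7 to 578 ± 44.2 (0.87 ± 0.12, q = 2.53e-11). Smaller rises were called for SCO2 (0.49 ± 0.18, q = 0.0136), the chaperone ATOX1 (0.31 ± 0.13, q = 0.0419) and SOD1 (0.27 ± 0.08, q = 0.00328). ATP7B, the copper pump of hepatocytes, had a log2 fold change of -0.37 and was not called (q = 0.235).

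**Figure D5:**
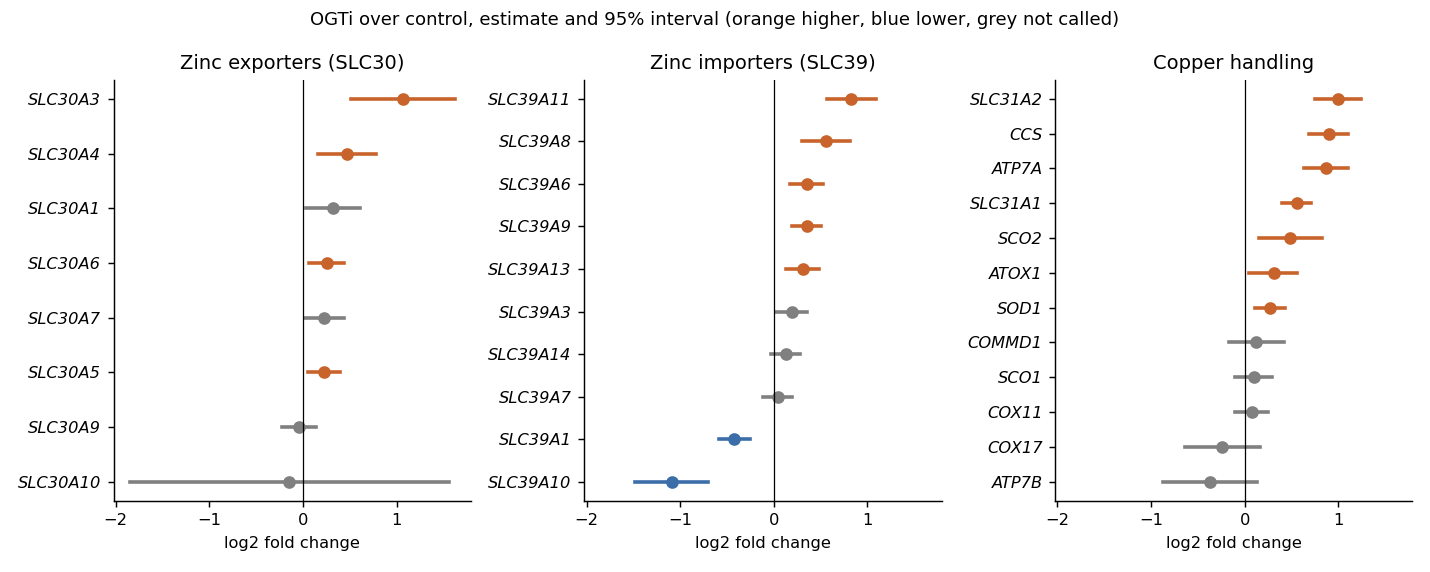
Log2 fold change of OGTi over control (horizontal axes) with 95% interval for zinc exporters, zinc importers and copper handling genes that had a q. Orange marks genes called higher, blue genes called lower and grey genes not called. SLC39A10 and SLC39A1 are the blue points, at -1.09 and -0.42, and the called exporters and copper genes lie to the right of 0.

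Of 6 other regulators known to act on metallothionein promoters, 1 was called higher and 2 lower, with a median log2 fold change of -0.09. Those 3 of 6 are near the 46.6% called over all genes tested. NR3C1, the glucocorticoid receptor, had 3331 to 3874 normalized counts in control and 1487 to 2138 in OGTi libraries (log2 fold change -0.90 ± 0.09, DESeq2 q = 2.2e-21). The groups did not overlap. SP1, a general activator, was lower (-0.31 ± 0.08, q = 0.000153) and USF1 higher (0.39 ± 0.10, q = 0.00074). NFE2L2, the oxidative stress factor NRF2, had 1512 ± 152 in control and 1506 ± 45.1 in OGTi cells (q = 0.995), and STAT3 and USF2 were not called.

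The genes most like the summed metallothioneins over the 8 libraries were PLAT (Pearson r = 0.995 of log2 values), MON1A (0.993), SIX2 (0.992), FAM43A (0.989) and EFNB1 (0.987). PLAT, which encodes tissue plasminogen activator, had mean levels of 1959 in control and 4102 normalized counts in OGTi cells. FAM43A, at 49.4 in control and 153 in OGTi cells, reached the required mean of 100 only through the OGTi libraries. These r values describe points that fall into the control and the OGTi group and share size factors, so that any gene with a steady difference between the groups can reach a high r.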

How the data were processed

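RNA sequencing of 4 control and 4 OGTi libraries of LX-2 cells was analysed, grouped and paired by the replicate numbers of the sample labels. Libraries were made from oligo-dT enriched RNA with a stranded protocol and, per the study's methods, counted by RSEM with a strand-specific setting. Per the submitters' processing notes, tools included Bowtie2 2.3.5.1, RSEM 1.3.1 and DESeq2 1.36.0 with the hg38 build. The files deposited by the authors hold expected counts per gene, estimated counts in which RSEM divides reads that fit several genes, not scaled for depth. Between 12.9% and 16.3% of genes in a library had fractional values. A further table holds the authors' own fold changes and p-values and was not used.

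Here expected counts were rounded and genes under 10 counts in total left out, leaving 14895. DESeq2 1.42.0 in R 4.3.3 was fitted to all 8 libraries with replicate number as a block, as the study's methods pair the samples. Size factors were medians of ratios, fold changes were unshrunken, and q came from Benjamini-Hochberg adjustment over 14028 genes after independent filtering. Intervals are 95% Wald intervals. Same-numbered libraries deviated together (r = 0.372, 0.391, 0.165 and 0.327 over 10994 genes). Control 3 was closer to OGTi 4 (0.343), so that pairing rests on the labels. Alternatives were edgeR 4.0.16, no block, TMM or upper-quartile factors, other filters and leaving out each replicate number. Gene positions are from GENCODE on hg38, and levels per kb use the annotated transcript.

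The genes and lists were chosen with earlier results of these data known. Named were the 10 genes, called list genes whose mean reached 50 normalized counts, and, among genes whose mean reached 100, the 5 most correlated with the summed metallothioneins (log2 of count plus 1). The control means of SLC30A3 and FAM43A were under these limits, which both genes passed through their OGTi libraries.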

Additional observations from a re-analysis of the deposited data

Results flagged for a closer look

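Among 78 groups of 4 libraries checked, 3 held a library whose gap to its nearest neighbour took up more of the group's range than Dixon's 95% critical value, where chance gives about 1 in 20, or 3.9. Control replicate 1 had 3389 normalized counts of SP1, whereas the remaining control libraries had 3950 to 3995. MT1X made up 1.75% of the summed metallothioneins in control replicate 2 and 2.56% to 2.72% in its fellow control libraries. The share of MT2A in that library was 88.8%, against 84.5% to 84.9%, and as the shares of a library add up to the whole, these values are not independent.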

How the results depend on the processing

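MT1E (log2 fold change 1.57 to 1.80), MT1X (2.04 to 2.24), MT2A (1.45 to 1.74) and SLC39A10 (-1.36 to -0.92) were called under all 11 alternatives. MT1F was called under 3 of the 11 (q from 0.0244 to 0.411) and SLC30A1 under 2 (q from 0.0342 to 0.383). Leaving out 1 replicate number moved the log2 fold change of MTF1 between -0.05 (without replicate 1, q = 0.774) and 0.09 (without replicate 2), and the cause was not tested. The number of the 10 genes called was 4 without the replicate block in both DESeq2 and edgeR, which called 6307 and 6041 genes in all, and 6 in edgeR with it, which called 7074. Without the block in DESeq2, SLC30A6 (q = 0.0629), ATOX1 (q = 0.07), SOD1 (q = 0.1) and ERRFI1 (q = 0.0787) lost their calls. Leaving out 1 replicate number gave 1 to 3 other SLC30 genes called in place of 4 (1 without replicate 1, 2 without replicate 3, 1 without replicate 4), and 4 to 7 copper handling genes in place of 7 (4 without replicate 2), in fits with fewer libraries. The log2 difference in summed metallothioneins ranged from 1.5 to 1.80. Of 253 recomputed fold changes of 23 named list genes, 26 lost the call and 0 changed direction. Depth limits MT1G, with 10 counts in all.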

Other observations

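Metallothionein genes are classic glucocorticoid targets, and 7 other such targets were listed beside them, of which 6 had a q. KLF9, a transcription factor induced by glucocorticoids, was at 475 to 706 normalized counts in control and 123 to 205 in OGTi libraries, a log2 fold change of -1.95 ± 0.18 (SE, DESeq2 q = 1.08e-26). FKBP5, a co-chaperone of the receptor, was lower as well (-0.34 ± 0.07, q = 1.95e-05), and ERRFI1 was higher (0.23 ± 0.10, q = 0.0405). TSC22D3, PER1 and SGK1 were not called, and the median log2 fold change of the 6 was -0.09. Those 3 called of 6 are near the 46.6% called over all genes tested.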
